A study of Cicer arietinum with 8 samples.

Results

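Among 27876 gene-named loci measured by RNA-seq in chickpea (Cicer arietinum) roots, 39 genes had FPKM at least 2-fold lower under salinity stress in the salinity tolerant (ST) genotype and nearly steady in the salinity sensitive (SS) genotype. FPKM is a fragment count corrected for the length of the transcript and for how many fragments the library mapped, so levels of different genes can be set side by side. A locus was taken when it carried a gene name, had FPKM of at least 5 in ST control and at least 2 times the FPKM of ST salinity stress, and had FPKM above 0 in both SS groups with a ratio of SS salinity stress to SS control between 0.8 and 1.25. The 39 genes are 0.14% of all gene-named loci and 0.277% of the 14075 with FPKM of at least 5 in ST control. Since the choice uses all 4 FPKM values of a gene, every ratio of these genes is given as a description and none carries a test.

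The groups were ST salinity stress and ST control, both from genotype JG62, and SS salinity stress and SS control, both from genotype ICCV2, with 2 root libraries in each group. Stressed plants received 80 mM NaCl every other day over 6 days, starting at an age of 12 days, and control plants were watered with RO water without added salt. The sample labels give the age at harvest as 18 days, whereas the text of the series gives 17 days. The tissue field of the labels reads salinity, and root is taken from the source field. All plants were seedlings kept in a growth chamber, and each genotype stands for 1 accession. The deposited table gives 1 FPKM value per locus and group, in which the authors combined both libraries, so differences between groups could not be set against a spread between libraries and no SD, SE or p-value is given. The table holds neither coordinates nor gene products, so root markers and pathway lists could not be examined.

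Salt in the root zone holds back water uptake and brings sodium and chloride into the root, where excess sodium competes with potassium. Plant roots are known to answer with ion transport, compatible solutes, changes in membrane lipids and altered root growth, and tolerant and sensitive genotypes of a crop can differ both in their levels before stress and in their response. The 39 genes therefore pose a plain question, namely whether ST under stress dropped below a level common to the other 3 groups, or whether ST control stood above it.

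Of the 14075 gene-named loci with FPKM of at least 5 in ST control, 90 (0.639%) were at least 2-fold lower in ST salinity stress. In the SS genotype 12 of these 90 were also at least 2-fold lower and 20 were lower by less, with a ratio under 0.8. Together 35.6% had an SS ratio under 0.8, against 9.91% of the 14075 loci. A further 10 were higher in SS salinity stress by less than 2-fold, with a ratio above 1.25, and 4 were at least 2-fold higher. Together 15.6% had an SS ratio above 1.25, against 6.28% of the 14075 loci. Another 5 were listed at 0 in an SS group, or 5.56%, against 0.0782% of the 14075 loci. The remaining 39, or 43.3% of the 90, were steady. With FPKM of at least 5 in ST control and above 0 in both SS groups there were 14064 loci, 83.8% of them with a steady SS ratio. The columns were nearly level with each other, since the stress ratios of the 18918 loci at FPKM 1 or more throughout had medians of 0.04 in ST and -0.02 in SS on the log2 scale.

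**Figure D1:**
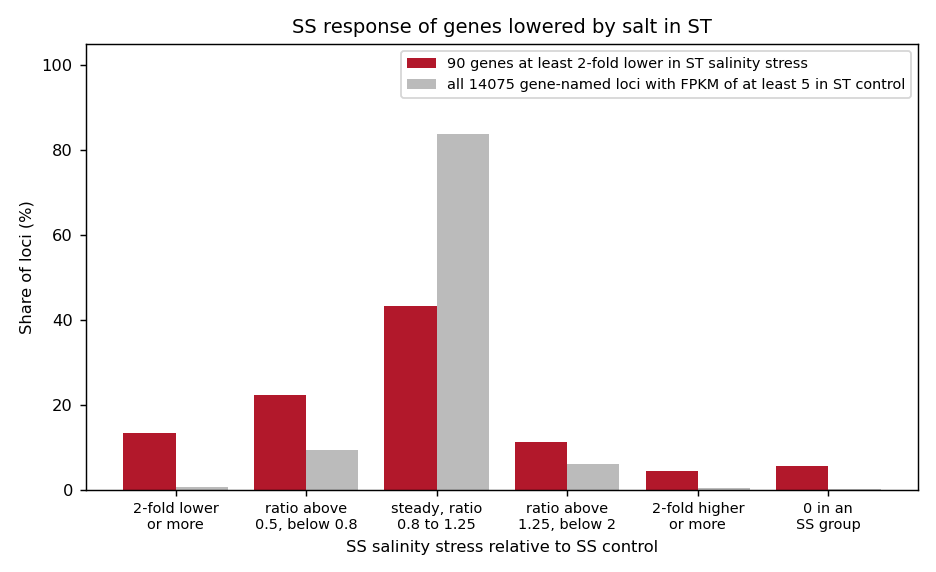
Share of loci, in percent, by the ratio of SS salinity stress to SS control, for the 90 genes at least 2-fold lower in ST salinity stress (red) and for all 14075 gene-named loci with FPKM of at least 5 in ST control (grey), which include the 90. The steady class holds 43.3% of the red and 83.7% of the grey loci, and the 2 lower classes hold 35.6% of the red and 9.91% of the grey loci. The 2 higher classes hold 15.6% of the red and 6.28% of the grey loci.

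The difference between ST salinity stress and ST control was moderate in most of the 39 genes. It was between 2-fold and 2.5-fold in 23 genes, between 2.5-fold and 3-fold in 9, between 3-fold and 4-fold in 5 and above 4-fold in 1, and 1 gene was listed at 0 in ST salinity stress. The median log2 ratio of ST salinity stress to ST control was -1.23, with quartiles of -1.45 and -1.16, against a median of 0.04 over the 14064 loci. In SS the ratio of stress to control ranged between 0.808 and 1.22 with a median of 0.992. It lay above 1 in 19 genes and below 1 in 20, and between 0.9 and 1/0.9 in 20.

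**Figure D2:**
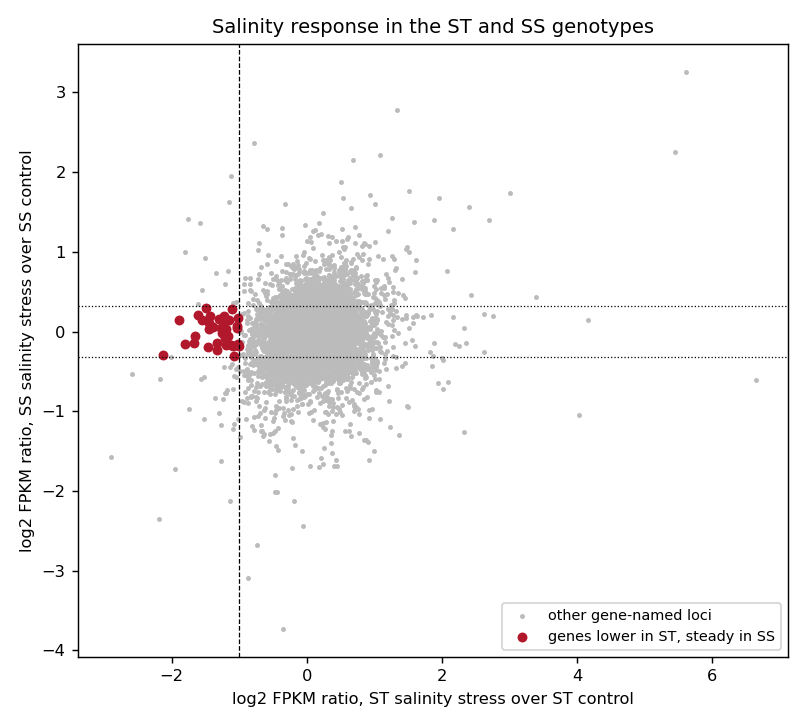
Log2 FPKM ratio of stress to control in ST (horizontal axis) and in SS (vertical axis) for 14365 gene-named loci with FPKM of at least 5 in an ST group and above 0 in every group. Red points are 38 of the 39 genes, the dashed line marks the 2-fold difference in ST and the dotted lines the SS ratios of 0.8 and 1.25. The red points lie within those lines because they were chosen by them, and all but 1 of them lie within 4-fold of equal ST levels.

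Most of the 39 genes were expressed at low to middle levels. Their median FPKM was 5.54 in ST salinity stress, 13.0 in ST control, 8.64 in SS salinity stress and 9.94 in SS control, whereas the 14075 loci had a median of 24.4 in ST control. In ST control 11 of the genes lay between FPKM 5 and 10, 24 between 10 and 50 and 4 at 50 or more. Over all gene-named loci, a 2-fold lower value in ST salinity stress was found for 1.11% of the 2610 loci between FPKM 5 and 10, 0.670% of the 7617 loci between 10 and 50 and 0.260% of the 3848 loci at 50 or more. The number of fragments behind a low FPKM is unknown here, and its part in these shares was not tested.

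Summed over the 39 genes, FPKM was 969 in ST salinity stress and 2263 in ST control, against 1090 in SS salinity stress and 1173 in SS control. Ca_07447 alone held a large part of these sums, and without it they were 464 in ST salinity stress, 1235 in ST control, 514 in SS salinity stress and 528 in SS control. Without Ca_25023 as well they were 327 in ST salinity stress, 797 in ST control, 393 in SS salinity stress and 394 in SS control. ST control was the high group in each of these sums. Gene by gene, ST control was the highest of the 4 groups in 34 of the 39 genes, SS control in 4 and SS salinity stress in 1. ST salinity stress was the lowest group in 26 genes, SS salinity stress in 7 and SS control in 6. By the choice, ST control is above ST salinity stress in every gene, and the FPKM minimum was set on ST control alone. The order of the groups is therefore partly set by the choice, and the share of all loci with each order was not computed.

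To locate the SS genotype between the ST levels, the geometric mean of both SS values was set against ST salinity stress and ST control, and a level within 1.25 times was called close. The SS level was above ST control in 1 gene, close to ST control in 10, between the ST levels in 11, close to ST salinity stress in 10 and below ST salinity stress in 7. The genes thus did not share 1 pattern. By this mean, the stressed ST roots stood alone as the low group in 10 and the ST control roots as the high group in 10. In the others neither ST group matched the SS level. These counts depend on the limit for close, and within 1.1 times they were 3 close to ST control and 3 close to ST salinity stress, with 19 between, 11 below and 3 above.

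**Figure D3:**
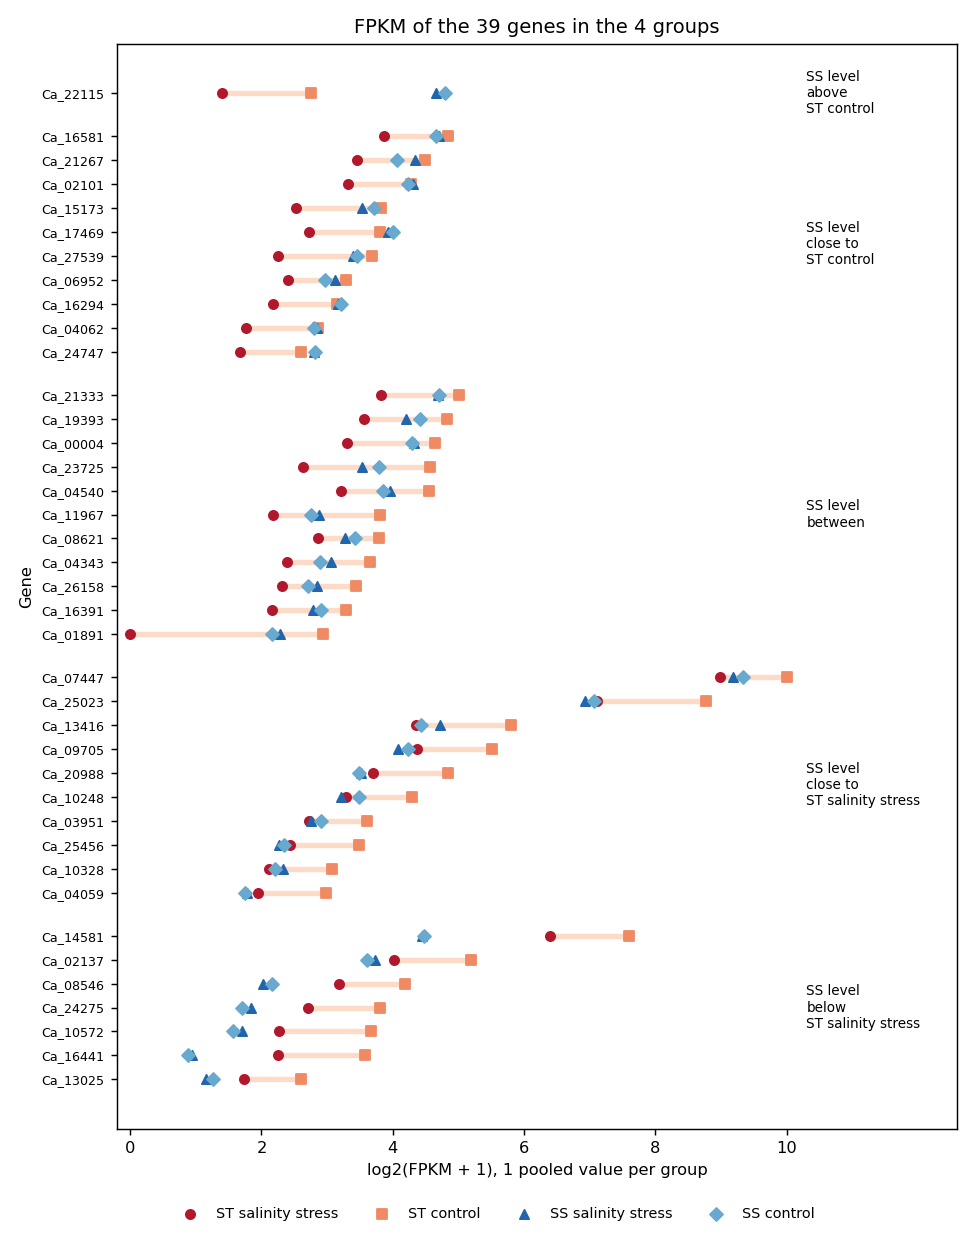
FPKM of each of the 39 genes as log2(FPKM + 1), with 1 pooled value per group: ST salinity stress (dark red circles), ST control (orange squares), SS salinity stress (dark blue triangles) and SS control (light blue diamonds). Rows are grouped by where the SS level lies and the pale bar joins both ST values. The blue symbols lie at or towards the right end of the bar in the 10 genes close to ST control. They lie at or towards its left end in the 10 genes close to ST salinity stress.

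The genes in which the SS level was close to ST salinity stress include the most abundant ones. Ca_07447 had FPKM 505 in ST salinity stress and 1028 in ST control, against 577 in SS salinity stress and 645 in SS control. ST control was 1.59 times SS control, whereas the other 3 groups lay between 505 and 645. Ca_25023 had FPKM 137 in ST salinity stress and 438 in ST control, against 121 in SS salinity stress and 133 in SS control. With a 3.19-fold difference in ST, it combined a high level with a large ratio, and its stressed ST value was nearly that of both SS groups. Ca_13416 had FPKM 19.4 in ST salinity stress and 54.5 in ST control, against 25.2 in SS salinity stress and 20.6 in SS control. Ca_09705 showed the same order of ST control over the other groups, at 19.6 in ST salinity stress, 44.8 in ST control, 15.8 in SS salinity stress and 17.8 in SS control.

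The other 6 genes of this kind had lower levels. Ca_20988 had FPKM 12.0 in ST salinity stress and 27.6 in ST control, against 10.4 in SS salinity stress and 10.2 in SS control. Ca_10248 had 8.77 in ST salinity stress and 18.5 in ST control, against 8.24 in SS salinity stress and 10.2 in SS control. Ca_03951, Ca_25456, Ca_10328 and Ca_04059 had between 2.86 and 5.58 in ST salinity stress and between 6.88 and 11.2 in ST control. Over the 10 genes the median ratio of ST control to SS control was 2.51 (from 1.59 to 3.28), and that of ST salinity stress to SS salinity stress was 1.1 (from 0.771 to 1.24). The choice of these genes and their class keep the second ratio near 1 and set only a lower limit on the first. Both are therefore given as a description.

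The reverse arrangement was found in the 10 genes whose SS level was close to ST control. Ca_16581 had FPKM 13.6 in ST salinity stress and 27.8 in ST control, against 25.1 in SS salinity stress and 24.3 in SS control. Ca_21267 had 10.003 in ST salinity stress and 21.6 in ST control, against 19.1 in SS salinity stress and 15.7 in SS control. Ca_02101 had 8.998 in ST salinity stress and 18.4 in ST control, against 18.8 in SS salinity stress and 17.9 in SS control. In Ca_16581 and Ca_02101 the stressed ST roots were the only low group. In Ca_21267 SS control was 0.728 times ST control, outside the limit for close, so on single SS values it would count as between. Ca_27539 had the largest ST ratio of the 10 genes, 3.16-fold, with FPKM 3.74 in ST salinity stress and 11.8 in ST control, against 9.53 in SS salinity stress and 9.94 in SS control. Ca_17469, with 5.63 in ST salinity stress and 13.0 in ST control, was slightly higher in SS, at 14.3 in SS salinity stress and 15.0 in SS control. Ca_15173, Ca_06952, Ca_16294, Ca_04062 and Ca_24747 had between 2.19 and 4.77 in ST salinity stress and between 5.07 and 13.2 in ST control. Over the 10 genes the median ratio of ST control to SS control was 1.07 (from 0.841 to 1.37). That of ST salinity stress to SS salinity stress was 0.446 (from 0.366 to 0.561). Here the choice and the class keep the first ratio near 1 and set only an upper limit on the second.

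In 11 genes the SS level lay between the ST levels, so that ST salinity stress was below and ST control above both SS groups. The largest ST ratio among the genes above 0 in every group was found here, in Ca_23725, which had FPKM 5.20 in ST salinity stress and 22.7 in ST control, against 10.5 in SS salinity stress and 12.8 in SS control. This 4.37-fold difference went with a small one in the same direction in SS, whose ratio of 0.819 was near the lower limit of the choice. Ca_11967 followed with 3.52 in ST salinity stress and 13.0 in ST control, a 3.71-fold difference, against 6.36 in SS salinity stress and 5.76 in SS control. Ca_21333 and Ca_19393 were the most abundant of these genes. Ca_21333 had 13.2 in ST salinity stress and 31.3 in ST control, against 24.8 in SS salinity stress and 25.1 in SS control. Ca_19393 had 10.8 in ST salinity stress and 27.3 in ST control, against 17.4 in SS salinity stress and 20.4 in SS control.

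Ca_00004 and Ca_04540 had the same ST ratio at different SS positions. Ca_00004 had FPKM 8.84 in ST salinity stress and 24.1 in ST control, against 18.9 in SS salinity stress and 18.5 in SS control. Ca_04540 had 8.28 in ST salinity stress and 22.6 in ST control, against 14.6 in SS salinity stress and 13.5 in SS control. Each was 2.72-fold lower under stress in ST. Ca_08621, Ca_04343, Ca_26158 and Ca_16391 had between 3.48 and 6.28 in ST salinity stress and between 8.71 and 12.9 in ST control. Ca_01891 was the only one of the 39 genes listed at 0 in ST salinity stress, with FPKM 6.64 in ST control, 3.85 in SS salinity stress and 3.46 in SS control. No fold is given for it, since a listed 0 gives no ratio and its ST control value was near the limit of 5.

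In 7 genes both ST groups were above the SS level, and by this choice the controls of the genotypes differed by more than the ST groups did. Ca_14581 had FPKM 83.4 in ST salinity stress and 192 in ST control, against 20.7 in SS salinity stress and 21.3 in SS control. ST control was 9.01 times SS control, and even the lower ST value was 4.02 times SS salinity stress. Ca_16441 had 3.74 in ST salinity stress and 10.9 in ST control, against 0.921 in SS salinity stress and 0.835 in SS control, and was the only one of the 39 genes below FPKM 1 in SS. Its 13.1-fold difference between the controls was the largest of the 39 genes. Ca_10572 had 3.80 in ST salinity stress and 11.7 in ST control, against 2.27 in SS salinity stress and 1.96 in SS control, and its ST difference of 3.07-fold was the largest of these 7. Ca_08546 had 8.03 in ST salinity stress and 17.1 in ST control, against 3.06 in SS salinity stress and 3.47 in SS control. This gene was low in SS but well above 0. Ca_24275 had 5.54 in ST salinity stress and 13.0 in ST control, against 2.56 in SS salinity stress and 2.25 in SS control. Ca_13025, the least abundant of the 7 in ST, had 2.34 in ST salinity stress and 5.10 in ST control, against 1.23 in SS salinity stress and 1.39 in SS control.

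The last gene of this kind was Ca_02137, the only one of these genes whose product is given in the sources used here. It is a homolog of a patatin-related phospholipase A of Arabidopsis, an enzyme family that releases fatty acids from membrane lipids and that in Arabidopsis has been tied to lateral root development. Its FPKM was 15.3 in ST salinity stress and 35.7 in ST control, against 12.3 in SS salinity stress and 11.2 in SS control. ST control stood apart from the other 3 groups, and the stressed ST value was 1.25 times that of SS salinity stress, the smallest such ratio of the 7. Ca_02137 thus lay at the border of this class. On single SS values, or with a limit of 1.5 times for close, it would count as close to ST salinity stress. The paper also reports Ca_02137 as downregulated in ST, with raised DNA methylation downstream of the gene at CHH cytosines, where H is any base but guanine. Methylation was not examined here. The genes that the paper names by identifier were picked from these libraries. They are 17 genes at 18 loci in the table. Of these loci 2 were at least 2-fold lower in ST salinity stress, Ca_02137 and Ca_25099. Ca_25099, which encodes a homolog of FRD3, an efflux protein of the MATE family needed for iron movement in Arabidopsis, had FPKM 1.39 in ST salinity stress and 10.4 in ST control, against 8.89 in SS salinity stress and 26.5 in SS control. It was lower in both genotypes, 7.49-fold in ST and 2.99-fold in SS, and therefore is not among the 39.

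A single gene, Ca_22115, had the SS level above ST control. Its FPKM was 1.63 in ST salinity stress and 5.72 in ST control, against 24.2 in SS salinity stress and 26.9 in SS control. SS control was 4.70 times ST control, and SS salinity stress was 14.8 times ST salinity stress. It was the opposite of Ca_14581 and Ca_16441 in the direction of the genotype difference, with a 3.50-fold difference between the ST groups on top.

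Across the 39 genes, the ratio of ST control to SS control had a median log2 value of 0.82, with quartiles of 0.36 and 1.40, against -0.01 over the 14064 loci. ST control was at least 1.5-fold above SS control in 23 genes (background 4.95% of the loci) and at least 1.5-fold below it in 1, Ca_22115 (background 4.02%). The ratio of ST salinity stress to SS salinity stress had a median log2 value of -0.68, with quartiles of -1.02 and 0.20, against 0.05 over the loci. ST salinity stress was at least 1.5-fold below SS salinity stress in 21 genes (background 3.3%) and at least 1.5-fold above it in 6 (background 7.33%). These shares differ from the background partly by construction. A 2-fold difference in ST with an SS ratio of at most 1.25 either way requires that the excess of ST control over SS control, multiplied by the excess of SS salinity stress over ST salinity stress, be at least 1.6.

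The choice does not fix how that product is divided, and the genes divided it in different ways. In 17 genes the excess reached 1.5-fold in the controls alone, in 15 it did so in the stressed groups alone, in 6 in both and in 1 in neither. The last was Ca_08621, with FPKM 6.28 in ST salinity stress and 12.9 in ST control, against 8.64 in SS salinity stress and 9.71 in SS control. The 6 with both, among them Ca_23725, Ca_11967 and Ca_01891, were all of the class between the ST levels.

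**Figure D4:**
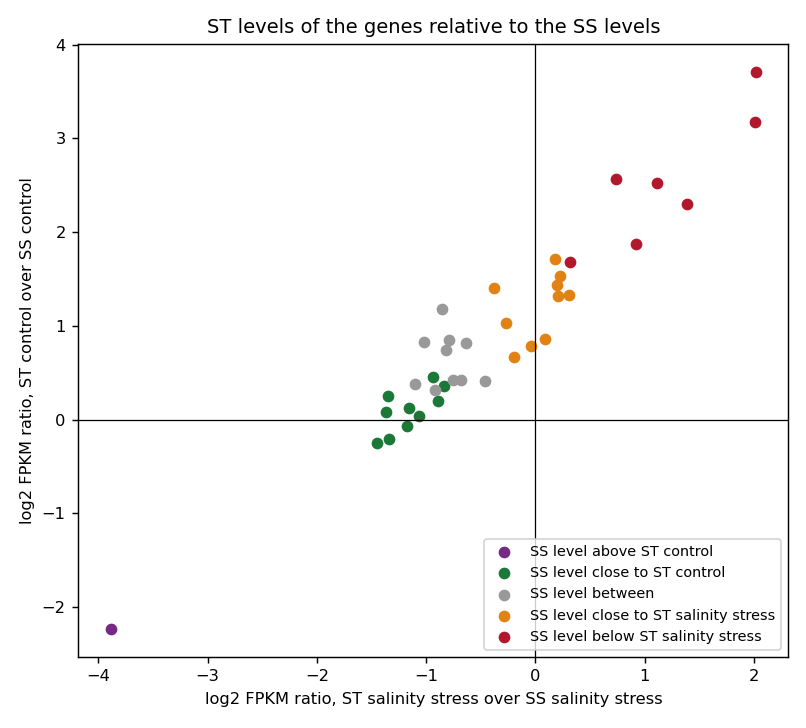
Log2 FPKM ratio of ST salinity stress to SS salinity stress (horizontal axis) and of ST control to SS control (vertical axis) for the 38 genes above 0 in every group, coloured by where the SS level lies. The points run from Ca_22115 at the lower left, with both ST values below SS, through the genes close to ST control, between and close to ST salinity stress, to Ca_16441 at the upper right, with a log2 ratio of 3.71 in the controls, and the rule keeps them above the diagonal.

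Values near the limits of the choice show how narrow the difference to the loci left out was. Ca_03951, the gene nearest to the 2-fold limit, had FPKM 5.58 in ST salinity stress and 11.2 in ST control, a 2.004-fold difference, and Ca_07542, just outside, had 4.93 in ST salinity stress and 9.81 in ST control, a 1.99-fold difference. At the FPKM limit, Ca_24747 had 5.07 in ST control and was taken, whereas Ca_19878 had 4.74 and was not, at ST differences of 2.31-fold and 2.33-fold. At the lower SS limit, Ca_10248 had an SS ratio of 0.808 and Ca_22970, left out, had 0.799. Ca_22970 had FPKM 5.12 in ST salinity stress and 20.6 in ST control, a 4.02-fold difference that would have ranked second among the genes above 0. At the upper SS limit, Ca_13416 had an SS ratio of 1.22 and Ca_12928, left out, had 1.27.

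None of the 39 genes shared its locus with another gene name, but the names of 2 also stood at a second locus. Ca_15173 was taken at a locus with FPKM 4.77 in ST salinity stress and 13.2 in ST control, against 10.6 in SS salinity stress and 12.1 in SS control. Its other locus had 31.2 in ST salinity stress and 45.0 in ST control, against 32.0 in SS salinity stress and 38.7 in SS control, a 1.44-fold difference in ST. The more abundant locus of this gene therefore missed the limit. Ca_21267 was also named at a locus with FPKM 0.882 in ST salinity stress and 0.622 in ST control, too low to be considered. How fragments were divided between loci of the same name is not given in the sources used here.

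The same limits applied in the other directions gave sets of different size. In ST 67 gene-named loci were at least 2-fold higher under stress with FPKM of at least 5 in ST salinity stress and a steady SS ratio, against the 39 that were lower. With the genotypes exchanged, 32 loci were lower and 19 higher in SS with a steady ST ratio. As plain counts the ST and SS sets were thus 39 against 32 for lower loci and 67 against 19 for higher loci. The FPKM minimum lay on a different group in each set, so the eligible loci differed. No test of these differences can be made from pooled columns. In ST the higher and lower sets came nearer in size after scaling, at 58 and 44 with median-ratio and 56 and 45 with upper-quartile scaling. In SS the lower and higher sets were 29 and 20 with median-ratio and 30 and 21 with upper-quartile scaling. Shares of the eligible loci were not computed for the other sets.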

How the data were processed

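Root RNA of 8 libraries was sequenced from 1 end over 49 bp. Adapters and low-quality reads were taken out by the authors with NGS QC Toolkit. They mapped the rest on the Kabuli chickpea genome with TopHat2 2.1.1, assembled transcripts with Cufflinks 2.2.1 and obtained expression values with Cuffdiff 2.2.1. These versions are from the submitters' processing notes, whereas the paper gives Cuffdiff as 2.1.1. The deposited values are FPKM, computed by the authors per locus with both libraries of a group combined, and the scaling between libraries is not given in the sources used here. Depth is unknown from these values. Among 479 loci under FPKM 0.2 in both ST groups, the most frequent ratio was shared by 4, so whole reads could not be recovered.

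Ratios are plain FPKM ratios without a pseudocount, computed with Python 3.11.15, pandas 2.3.3 and numpy 2.4.6, and plots with matplotlib 3.10.9. The selection and the median-ratio scaling were tested on simulated data with planted answers, and the classes on constructed rows of known class. The planted drops were 3-fold, at loci with SS control FPKM of at least 10 and with little noise. How the selection performs near its limits was therefore not tested. The upper-quartile scaling was not tested in this way. The genes and the limits were chosen with earlier results of these data known. Genes described singly are the 5 most abundant in ST control, the 5 with the largest ST ratio, those listed at 0, the 2 most abundant of each class, those the study names and those nearest to each limit, which gave 15 of the 39 without the last kind. Others were picked after their values were seen. The test planned for single libraries was not made because the columns are pooled. The reference table for chickpea holds 0 identifiers of the deposited kind and was left out. Alternatives were other FPKM minimums, ratios, SS limits, pseudocounts, scalings and class limits.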

Additional observations from a re-analysis of the deposited data

How the results depend on the processing

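The number of genes was 39 as chosen and depended mostly on the limits themselves. It was 92 with an FPKM minimum of 1 and 208 with none, 194 at 1.5-fold and 7 at 3-fold, and 20 with an SS ratio between 0.9 and 1/0.9. With a pseudocount of 1 it was 30, of which 29 were among the 39. Median-ratio and upper-quartile scaling gave 44 and 45, and both kept all 39. When a level within 1.1 times was called close, 3 genes had the SS level above ST control, 3 close to ST control, 19 between, 3 close to ST salinity stress and 11 below it, and within 1.5 times 5 were between. With an FPKM minimum of 10, loci lower in SS and steady in ST numbered 21 instead of 32. The other 46 of 58 alternative values stayed within 1.5 times of the value reported, with log2 medians taken as ratios. On the log2 scale the median SS ratio of stress to control changed sign. It was -0.01 as chosen, 0.01 with median-ratio scaling and 0.02 with upper-quartile scaling. The depth behind low FPKM is unknown. Leaving out a library could not be done with pooled columns. No paired analysis was possible because the columns carry no replicate number.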

Other observations

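The same limits were also met by 23 of the 1750 loci without a gene name that had FPKM of at least 5 in ST control. The most abundant, XLOC_028445, had FPKM 26.6 in ST salinity stress and 55.9 in ST control, against 48.7 in SS salinity stress and 55.3 in SS control, so its stressed ST value alone was low. XLOC_022688 was listed at 0 in ST salinity stress and had 10.8 in ST control, against 0.791 in SS salinity stress and 0.691 in SS control. Among the loci above 0 in every group the largest ST ratio, 10.7-fold, was that of XLOC_018917, with 0.759 in ST salinity stress and 8.14 in ST control, against 2.79 in SS salinity stress and 2.96 in SS control. XLOC_025711 had a 9.60-fold difference in ST, with 1.39 in ST salinity stress and 13.4 in ST control, against 1.04 in SS salinity stress and 1.01 in SS control. Both ratios exceeded those of the 39 gene-named loci, the 1 listed at 0 left aside, and the last 3 loci were picked after their values were seen. The SS level was close to ST control in 5 of the 23, between the ST levels in 7, close to ST salinity stress in 6, below it in 4 and above ST control in 1.

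Ca_04059 and Ca_04062 are numbered 2 apart among the loci of the table, and the locus between them, Ca_04061, went the other way in ST. Ca_04061 had FPKM 10.99 in ST salinity stress and 6.75 in ST control, against 10.4 in SS salinity stress and 8.07 in SS control. Ca_04059 had 2.86 in ST salinity stress and 6.88 in ST control, against 2.45 in SS salinity stress and 2.38 in SS control, and Ca_04062 had 2.39 in ST salinity stress and 6.27 in ST control, against 6.16 in SS salinity stress and 5.93 in SS control. The pair therefore differed in where the SS level lay. Whether numbers follow position on the genome was not tested.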
